A study of Mus musculus with 4 samples.

Results

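The histone cluster genes considered here are the genes whose deposited symbol starts with Hist1h, Hist2h, Hist3h or Hist4h. They were selected on measured values, since symbols were available only for probe sets filtered at an adjusted p-value under 0.05 for knockout against wild type in normoxia. The rule found 3 genes, Hist1h2bc, Hist1h1a and Hist3h2a, among 1613 named genes and 16752 genes in all. The reference annotation holds 70 genes of these clusters, 56 on chromosome 13, 10 on chromosome 3, 3 on chromosome 11 and 1 on chromosome 6, and the other 67 carry no name in the table. Whether those were measured and missed the threshold or were not on the array was not examined, so the values of genes just outside the threshold are not given here.

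The data are 4 Affymetrix whole-transcript arrays of immortalized mouse kidney epithelial cells of C57BL/6 background, 2 arrays of the FH knockout line (Fh1Δ/Δ) and 2 of the wild-type line that carries the intact floxed alleles (Fh1fl/fl). All 4 cultures were normoxic, untreated and grown with 10% serum and 2 mM glutamine. By the paper's methods, the medium of the mouse lines also held pyruvate and uridine. FH is the enzyme of the tricarboxylic acid cycle that turns fumarate into malate. Whether each line is a single clone is not given in the sources used here, and the labels call the replicates biological without saying that they were separate cultures. The hypoxia arrays in the same table were not analysed here.

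Histones are the proteins around which nuclear DNA is wound. H2A, H2B, H3 and H4 form the core of the nucleosome, and H1 binds the linker DNA where it enters and leaves the core. Most histone genes lie in clusters and are transcribed mainly while DNA is replicated, and their mRNAs typically end in a stem-loop instead of a poly(A) tail. A smaller set of histone genes outside the clusters is used throughout the cell cycle. The genes of one core histone class are close to identical in their coding sequence, so a probe set labelled with one of them may also read its copies. Which bases each probe set reads was not examined.

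Fh1 had a log2 expression of 9.17 ± 0.05 in Fh1Δ/Δ cells and 10.46 ± 0.02 in Fh1fl/fl cells (SD, n = 2 each), a log2 difference of -1.29. Log2 values over all probe sets ran from 1.78 to 13.72, and replicate arrays correlated across genes at 0.992 in either line, where genes are not independent replicates. The median log2 difference over all genes was -0.11. Of the kidney epithelial markers, only 2 of 14 carry a name in the table. Slc12a1, a transporter of the thick ascending limb, was at 4.70 in Fh1fl/fl and 4.35 in Fh1Δ/Δ cells. Its values lay below the lower quartile of every array, and whether they were above background was not examined. None of the 9 fibroblast, 4 endothelial and 5 immune markers has a name in the table, so their levels were not read.

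The 3 histone cluster genes did not move together. Hist1h2bc, an H2B gene, and Hist3h2a, an H2A gene, were higher in Fh1Δ/Δ cells, and Hist1h1a, the gene of the linker histone H1.1, was lower. The difference was 15.7-fold for Hist1h2bc, from a wild-type level near the dim end of the arrays, 1.64-fold for Hist3h2a and 2.16-fold in the other direction for Hist1h1a. Since the rule used this same contrast, these values describe the genes and no test is given for them.

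Hist1h2bc had log2 values of 5.64 and 4.997 on the Fh1fl/fl arrays and 9.90 and 8.68 on the Fh1Δ/Δ arrays, in the order replicate 1, replicate 2. Both knockout arrays lay far above both wild-type arrays. The means were 5.32 ± 0.46 and 9.29 ± 0.86 (SD, n = 2 each). The log2 difference was 3.97, and it ranged from 3.04 to 4.90 over the 4 pairs of a knockout and a wild-type array, or from 8.21-fold to 29.9-fold. Only 6 of 16752 genes had a larger increase. The lower quartiles of the Fh1fl/fl arrays were 5.64 and 5.70, so Hist1h2bc lay at the lower quartile on one of them and below it on the other. Whether these readings were above background was not examined, so the folds are those of the values as deposited and may be limited by the floor of the array.

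The Fh1Δ/Δ arrays differed by 1.22 for Hist1h2bc. A gap at least as large between these arrays was found in 0.40% of all genes. The share was 0.0414% of the 2417 genes whose mean level in Fh1Δ/Δ cells lay within 0.5 of that of Hist1h2bc. This share is Hist1h2bc itself, so no other gene of that level reached its gap. The median gap at that level was 0.12. The Fh1fl/fl arrays differed by 0.65, a gap reached by 6.01% of 2546 genes of similar level. The direction of Hist1h2bc was the same in every pair of arrays, but its size was among the least repeatable of its brightness in the knockout line.

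Hist1h1a had log2 values of 10.69 and 10.44 in Fh1fl/fl cells and 9.65 and 9.26 in Fh1Δ/Δ cells. The groups did not overlap, and all 4 values were above the median of their array, which lay between 7.18 and 7.32. The means were 10.56 ± 0.17 and 9.46 ± 0.28 (SD, n = 2 each), a log2 difference of -1.11 with a range of -1.43 to -0.79 over the pairs of arrays. There were 130 genes with a larger decrease. The gap between the Fh1Δ/Δ arrays, 0.39, was reached by 3.73% of 2360 genes of similar level, and that between the Fh1fl/fl arrays, 0.25, by 11.6% of 1342. For Hist1h1a as for Hist1h2bc, replicate 1 was the higher array in both lines.

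Hist3h2a had log2 values of 8.51 and 8.58 in Fh1fl/fl cells and 9.25 and 9.27 in Fh1Δ/Δ cells. This was the smallest of the 3 differences and the most even one. The means were 8.54 ± 0.06 and 9.26 ± 0.01 (SD, n = 2 each), a log2 difference of 0.71 with a range of 0.66 to 0.76, and 835 genes had a larger increase. Its gaps of 0.08 and 0.02 between replicates were reached by 63.4% and 90.8% of genes of similar level. In the reference annotation the gene overlaps Trim17, which encodes a tripartite motif protein, and the signals of the overlapping genes were not told apart here.

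**Figure D1:**
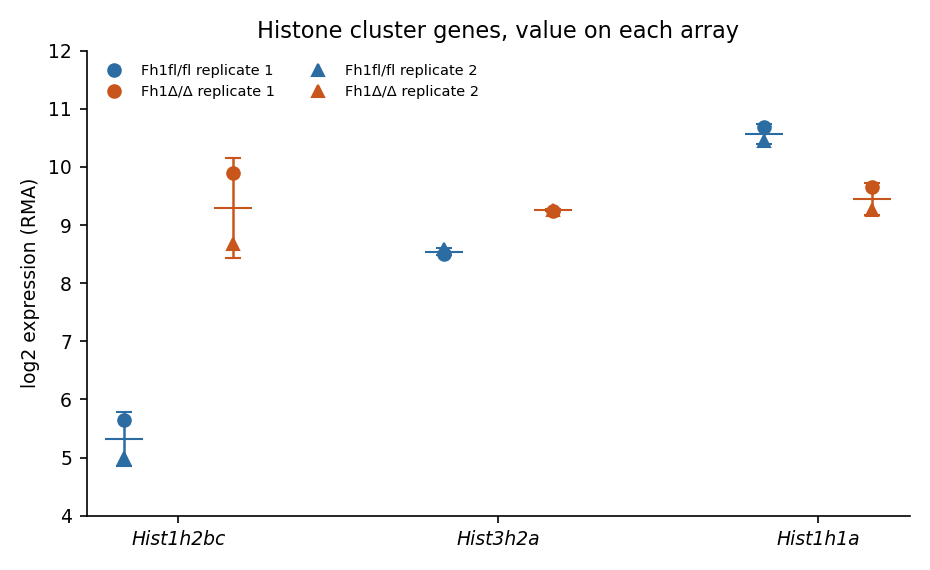
Log2 expression (vertical axis) of the 3 histone cluster genes on each of the 4 arrays, with Fh1fl/fl in blue and Fh1Δ/Δ in orange, circles for replicate 1 and triangles for replicate 2, horizontal bars for the group mean and error bars for the SD (n = 2). The groups do not overlap for any gene, and the knockout arrays of Hist1h2bc stand 1.22 apart, against 0.39 for Hist1h1a and 0.02 for Hist3h2a.

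Of the 3 genes, 1 was higher by a log2 difference of 1 or more and 1 was lower by as much, while 2.36% of all genes were that much higher and 1.04% that much lower. The arrays of the 2 groups did not overlap for 2 genes that were higher and 1 that was lower, against 25.6% of all genes higher and 40.7% lower without overlap. In limma's moderated fit over all genes, 6.23% were called higher and 3.99% lower at an adjusted p under 0.05. The genes were named because they had passed a threshold on this contrast, so nothing is read from these counts.

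The 250 bases before the transcription start of Hist3h2a and Hist1h1a are shown because these genes of one family went in opposite directions and belong to histone classes with different promoter elements. Sequences are from RefSeq (GRCm38.p6), where 2 of the 3 genes had an entry by gene ID and Hist1h2bc had none. Capitals mark the octamer ATGCAAAT, the CCAAT box and the letters TATAAA, searched on both strands with AAACACA, an element named for H1 genes. No marked stretch overlaps another. Hist3h2a (current symbol H2aw) lies on the plus strand with its window at chr11:58954435-58954684, and Hist1h1a (current symbol H1f1) on the plus strand with its window at chr13:23763418-23763667.
Hist3h2a: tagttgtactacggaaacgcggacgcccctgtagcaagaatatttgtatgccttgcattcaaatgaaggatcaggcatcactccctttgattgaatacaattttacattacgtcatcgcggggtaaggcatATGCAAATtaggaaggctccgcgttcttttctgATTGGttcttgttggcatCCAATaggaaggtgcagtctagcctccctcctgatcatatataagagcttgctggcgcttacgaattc
Hist1h1a: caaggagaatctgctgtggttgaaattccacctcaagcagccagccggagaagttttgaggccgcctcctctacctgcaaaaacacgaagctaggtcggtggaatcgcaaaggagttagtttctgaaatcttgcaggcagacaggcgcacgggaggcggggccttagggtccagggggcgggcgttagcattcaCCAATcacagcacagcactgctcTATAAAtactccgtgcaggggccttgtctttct

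The Hist3h2a window held the octamer, the site read by octamer-binding (POU) factors, from 119 to 112 bases before the start. It also held a CCAAT box at 68 to 64 bases and another on the opposite strand, read as ATTGG, at 86 to 82. The Hist1h1a window held 1 CCAAT box at 56 to 52 bases and TATAAA at 33 to 28 bases. Hist3h2a had no TATAAA, though the similar letters TATAAG stand near its transcription start. Hist1h1a had neither the octamer nor AAACACA, though the similar letters AAACACG stand in its window. Other forms of these elements were not searched for, so this says only that the exact letters are not in the windows. GC content was 44.8% for Hist3h2a and 54.8% for Hist1h1a.

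Over windows of the same length before all 32851 RefSeq starts, the octamer stood in 1.60%, CCAAT in 33.8%, TATAAA in 12.4% and AAACACA in 6.25%. Among 62 genes of the histone clusters with a window, the octamer stood in 13, which were 7 of 18 H2A and 6 of 16 H2B genes and none of 6 H1, 10 H3 and 12 H4 genes. CCAAT stood in 51 of the 62, and TATAAA in 29. AAACACA stood in 9 of the 62, which were 5 of 6 H1, 2 of 18 H2A and 2 of 16 H2B genes. Hist1h1a was the H1 gene without these exact letters. These matches describe the sequences and were not set against expression, since the other cluster genes have no named value.

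Chromosome 13 carries both Hist1h2bc and Hist1h1a, and its probe sets had a higher median log2 difference than all genes together. Without the histone genes, the median log2 difference of its 604 probe sets was 0.11, with a range of 0.07 to 0.16 over the pairs of arrays, the fourth highest of 20 chromosomes, against -0.11 for all genes. With median centring these medians were 0.02 and -0.20, so the size of the chromosome 13 median moved with the scaling. Centring moves every gene by the same amount, so the place of chromosome 13 above all genes could not change. The 526 probe sets without a name had a median of 0.03 and the 78 named ones, which had passed the threshold, 0.63. Among the brighter probe sets, those whose mean over the arrays was above the median of all, 296 lay on chromosome 13 and their median was 0.29, with 78.7% above 0. The 308 dimmer probe sets had a median of -0.13, with 36.0% above 0. The dimmer median was below 0 on all 20 chromosomes, and that of chromosome 13 was the highest of them, so chromosome 13 stood high among the chromosomes at either level of brightness. Hist1h1a counted as brighter on every array, while Hist1h2bc, with a mean of 7.31 against a median of 7.24, did so only through its knockout arrays.

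The increase of Hist1h2bc was many times the median shift of its chromosome, and Hist1h1a went against that median. The chromosome median may not describe the stretch around these genes. The 55 probe sets without a name there had a median of -0.16, against 0.03 for all those without a name on chromosome 13. With the chromosome 13 median subtracted, the log2 difference was 3.86 for Hist1h2bc and -1.22 for Hist1h1a. On chromosome 13, 3.81% of probe sets were higher by 1 or more and 0.66% lower by as much. Hist3h2a lies on chromosome 11, whose median was -0.03 over 1356 probe sets and 0.09 over the 740 brighter ones, and its log2 difference was 0.74 with the chromosome median subtracted. The 111 named genes of chromosome 11 had a median of 0.52 with quartiles of 0.25 and 0.995, so the 0.71 of Hist3h2a lay inside the middle range of named genes there. Copy number of the chromosomes was not measured.

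**Figure D2:**
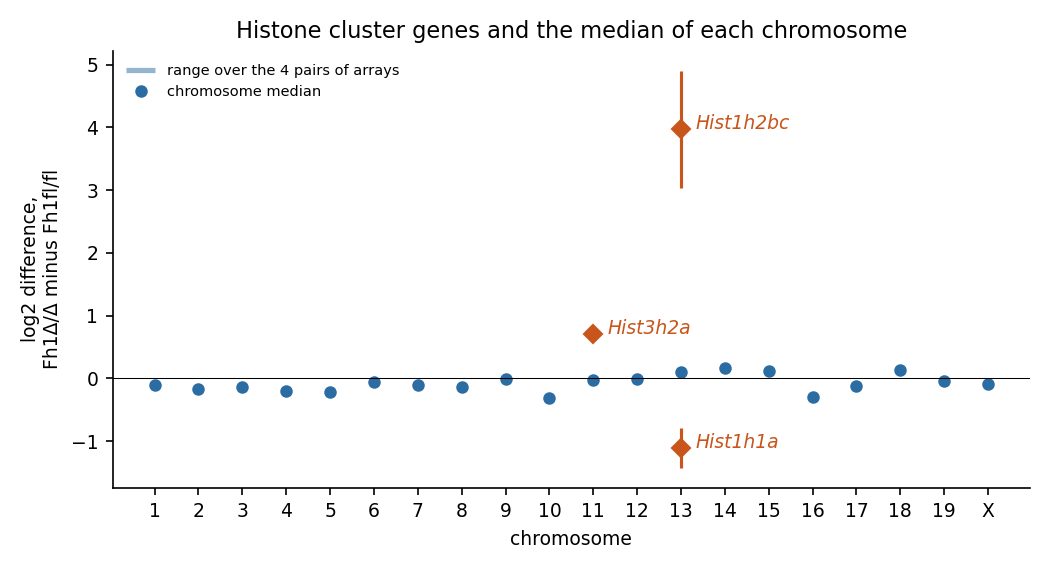
Log2 difference, Fh1Δ/Δ minus Fh1fl/fl (vertical axis), by chromosome (horizontal axis). Blue points are medians over the probe sets placed on a chromosome, with pale bars for their range over the 4 pairs of arrays, and orange diamonds are the histone genes with lines for the same range. Hist1h2bc stands at 3.97 and Hist1h1a at -1.11 around a chromosome 13 median of 0.11, and Hist3h2a at 0.71 above a chromosome 11 median of -0.03.

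The probe sets without a name around the Hist1 genes had a median below 0. Probe set numbers follow the genome, as 73 of 74 successive pairs of named genes on chromosome 13 were in ascending reference order. Hist1h2bc and Hist1h1a were 50th and 55th of 606 probe sets in this order, with 4 probe sets without a name between them. These had log2 differences from -0.65 to 0.06, and 1 of the 4 was above 0. The reference holds 13 genes between Hist1h2bc and Hist1h1a, of which 10 are histone cluster genes, but which of them the 4 probe sets read is not known.

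Between Elmo1 and Wrnip1, the nearest other named genes on either side, 55 probe sets had no name. Their median log2 difference was -0.16 with a range of -0.90 to 1.71, and 17 were above 0. The 13 brighter ones had a median of -0.28, with 5 above 0, while the 232 brighter probe sets without a name on all of chromosome 13 had a median of 0.21, with 74.6% above 0. None of the 55 was lower by 1 or more and 2 were higher by 1 or more. Probe sets have no name because they missed the threshold on this contrast, and named genes bound the stretch, so small differences in it are largely set by the selection and do not set Hist1h2bc apart from its neighbours. Around Hist3h2a, the 10 nearest probe sets on each side ranged from -2.85 to 1.41 with a median of -0.19, and 5 of these 20 were above 0.

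**Figure D3:**
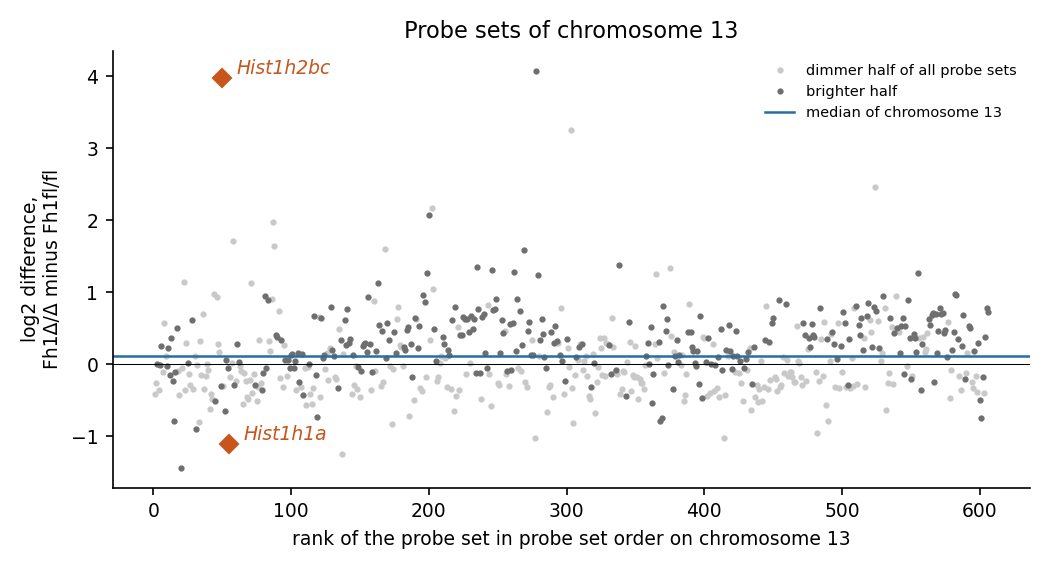
Log2 difference, Fh1Δ/Δ minus Fh1fl/fl (vertical axis), of the 606 probe sets placed on chromosome 13, in probe set order (horizontal axis, rank). Dark points are the brighter and pale points the dimmer probe sets, the blue line is the chromosome median of 0.11, and orange diamonds mark Hist1h2bc at 3.97 and Hist1h1a at -1.11, close neighbours at opposite ends of the scale.

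The named genes with values most like those of Hist1h2bc were Akr1c18, Mmp13, Mt2, Lpar4 and P2rx3. Likeness was the Euclidean distance over the 4 arrays, each value taken relative to the Fh1fl/fl mean, among 1612 named genes. It was 0.26 for Akr1c18, an aldo-keto reductase gene that also lies on chromosome 13, and 0.41 for Mmp13, a collagenase gene. For the metallothionein gene Mt2, the lysophosphatidic acid receptor gene Lpar4 and the ATP-gated channel gene P2rx3 it was 0.71, 0.75 and 0.78. Akr1c18 had values of 5.84 and 5.47 in Fh1fl/fl cells and 10.29 and 9.18 in Fh1Δ/Δ cells. Akr1c18 also had an uneven pair of knockout arrays, and Fh1Δ/Δ replicate 1 was the higher array for all 5 genes. The genes were picked by their likeness on these same arrays, which sets this in advance, so nothing is read from it. With 4 arrays this measure reflects the size of the difference and the replicate gaps.

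Other genes of histone supply were examined from lists written by hand, in which named members had already passed the authors' threshold. Of all named genes, 924 had a higher mean in Fh1Δ/Δ cells and 689 a lower one. Of 11 histone genes outside the clusters, 2 had a name and both were lower. H3f3a, one of the genes of the replacement histone H3.3, had values of 9.11 and 9.17 in Fh1fl/fl cells and 8.34 and 8.49 in Fh1Δ/Δ cells, a log2 difference of -0.73. The table assigns it to chromosome 1, but its nearest named neighbours in probe set order lie on chromosome 16. Named genes had a median of 0.43 on chromosome 1 and of -0.69 on chromosome 16, close to the difference of H3f3a. Which copy of the gene the probe set reads was not examined. Cenpa, the centromeric H3 variant, had 11.08 and 11.03 against 10.59 and 10.56, a log2 difference of -0.48. It lies on chromosome 5, whose named genes had a median of -0.39. Neither group of arrays overlapped, and both differences were smaller than that of Hist1h1a.

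None of 15 genes for the transcription and processing of histone mRNA, such as the stem-loop binding protein gene Slbp and the cluster coactivator Npat, had a name. Of 20 histone chaperone and assembly genes, 3 had one. Hira, a chaperone that deposits H3.3 outside replication, had a log2 difference of -0.89, from 9.35 ± 0.01 to 8.45 ± 0.05 (SD, n = 2 each). Daxx, another chaperone of H3.3, had -0.30. Hjurp, the chaperone of the centromeric variant, listed as 6430706D22Rik, had 0.40. Hira lies on chromosome 16, where the 81 named genes had a median of -0.69, and its difference was -0.60 with the median of all chromosome 16 probe sets subtracted. The same subtraction gave -0.18 for Daxx on chromosome 17 and 0.50 for Hjurp on chromosome 1. Named genes had medians of -0.27 and 0.43 on these chromosomes, close to the differences of Daxx and Hjurp before subtraction.

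Of 29 genes of S phase and DNA replication, the phase in which cluster histone genes are transcribed, 7 had a name, 6 lower and 1 higher. Ccne1, the cyclin E1 gene of S phase entry, had log2 values of 9.10 and 8.93 in Fh1fl/fl cells and 8.12 and 8.02 in Fh1Δ/Δ cells, a difference of -0.94. Mcm4, a subunit of the replicative helicase, had -0.86, and Prim1, the primase subunit, -0.66. None of the 7 differed by 1 or more. The lower genes lie on chromosomes 5, 7, 10 and 16, whose medians were -0.22, -0.11, -0.30 and -0.29, and with these subtracted they ranged from -0.83 for Ccne1 to -0.18 for Cdk2. The named genes of these chromosomes had medians of -0.39, 0.47, -0.54 and -0.69, so Ccne1 on chromosome 7 went against the named genes of its chromosome, while the other 5 were lower like most named genes of theirs. The part of the chromosome shifts in these differences was not tested.

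Of 40 genes of enzymes that write or remove marks on histone tails, 5 had a name, 3 higher and 2 lower. Jmjd1a (current symbol Kdm3a), an H3K9 demethylase gene, had values of 9.06 and 8.79 in Fh1fl/fl cells and 9.83 and 9.70 in Fh1Δ/Δ cells, a log2 difference of 0.84. The H3K9 and H3K36 demethylase gene Jmjd2a (current symbol Kdm4a) had 0.32 and the deacetylase gene Hdac10 0.56. Hdac2, which encodes a class I deacetylase, had -0.64, and the demethylase gene Aof2 (current symbol Kdm1a) had -0.23, or -0.02 with the chromosome 4 median subtracted. Jmjd1a, Hdac10 and Hdac2 lie on chromosomes 6, 15 and 10, whose named genes had medians of 0.62, 0.58 and -0.54. They thus went the way of most named genes there. On chromosome 4 the named median was -0.40, so Aof2 went with it and Jmjd2a, also on chromosome 4, against it. The part of the chromosome shifts was not tested.

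**Figure D4:**
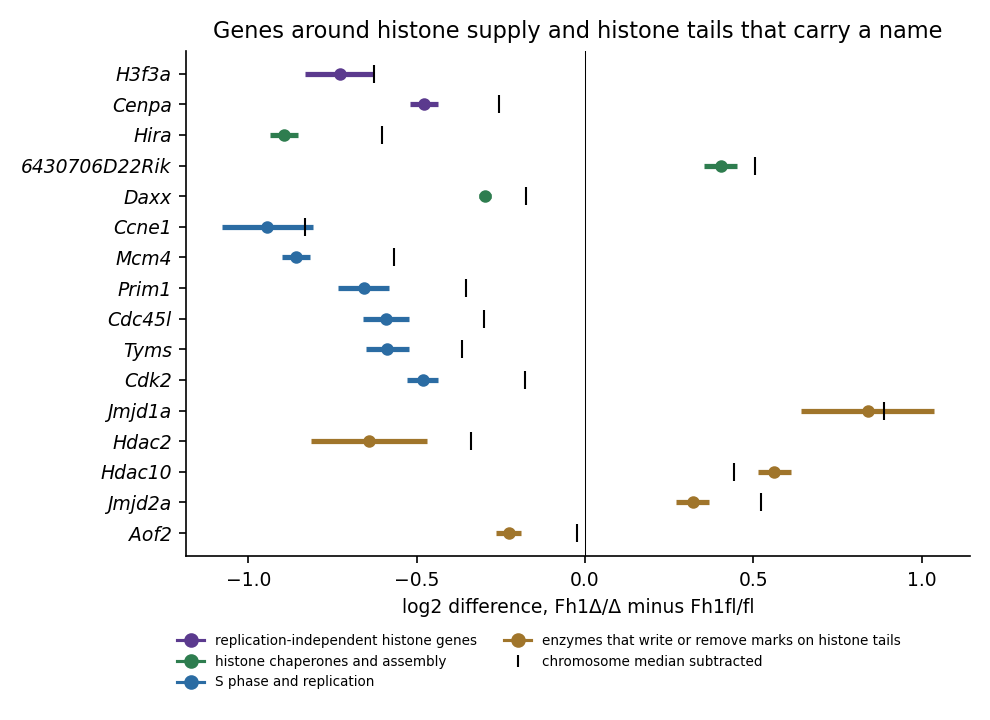
Log2 difference, Fh1Δ/Δ minus Fh1fl/fl (horizontal axis), of 16 named genes from 4 lists, coloured by list. Points are differences of group means (n = 2 each), bars the range over the 4 pairs of arrays, and black ticks the difference with the chromosome median subtracted. For H3f3a the median subtracted was that of chromosome 1, though its neighbours in probe set order lie on chromosome 16. The 16 genes drawn lie within 1 of 0, from -0.94 for Ccne1 to 0.84 for Jmjd1a. The 6 lower genes of S phase and replication are drawn, and the 1 higher gene of that list is not.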

How the data were processed

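The authors deposited log2 expression values for 16755 probe sets on 4 arrays, normalized between arrays. RMA, Partek and the build mm9 are listed, without versions, in the submitters' processing notes. Symbols, accessions and gene assignments were read from the authors' list of the 1616 probe sets whose adjusted p-value was under 0.05. The p-values and fold changes in it hold the authors' own comparison and were not used, nor were 12 per-sample columns of hypoxia arrays in the deposited tables. The 4 normoxia columns held the same values in both tables.

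After 3 duplicated names were reduced to the brightest probe set, 16752 genes were fitted with limma 3.58.1 in R 4.3.3, modelling genotype alone, and p-values were adjusted by Benjamini-Hochberg over all of them. The fit was also run on data simulated from its own fitted variances, without chromosome shifts. Such a run cannot show how well the model holds for the arrays. Differences are Fh1Δ/Δ minus Fh1fl/fl on the log2 scale, with no filter on dim probe sets. Precision is limited by 2 arrays a group, and fewer cells of a type cannot be told apart from less RNA per cell. Probe sets were placed on chromosomes by the table's cytoband or by agreeing neighbours in probe set order, 16081 in all. The neighbour rule was right for 1283 of 1285 probe sets checked. Named genes were all members, up to 4 of each list by size of difference, and the 5 nearest to Hist1h2bc. Values of 2 listed genes are not reported here, though the counts include them. Aof2 and Cdk2 were added after their values were seen. RefSeq tables (GRCm38.p6) supplied current symbols, neighbours and promoters, and all 3 members matched by accession. Members and lists were chosen with earlier results of these data known.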

Additional observations from a re-analysis of the deposited data

How the results depend on the processing

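The direction of Hist1h2bc, Hist3h2a and Hist1h1a was the same under each alternative run: a block for the replicate number, leaving out single arrays, median centring, quantile normalization and subtraction of each chromosome's median. Several of these runs could hardly have changed it. In this balanced design the block leaves the differences as they are. Leaving out 1 array cannot reverse genes whose groups do not overlap, and median centring moves every gene by the same amount. Nothing is read from the unchanged direction. Leaving out 1 array gave log2 differences of 3.36 to 4.58 for Hist1h2bc, 0.67 to 0.75 for Hist3h2a and -1.30 to -0.91 for Hist1h1a. Hist3h2a was 0.62 with median centring and 0.64 with quantile normalization, a move larger than its small replicate spread. Hist1h1a was under the threshold of 1 without Fh1fl/fl replicate 1 (-0.98) and without Fh1Δ/Δ replicate 2 (-0.91), so the count of lower members ranged from 0 to 1. At a threshold of 0.58, 2 members were higher, and at 2, 0 were lower.

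The chromosome 13 median of 0.11 was 0.018 with median centring, 0.29 in the brighter, 0.63 in named and 0.030 in unnamed probe sets, and 0.073 (without Fh1Δ/Δ replicate 1) to 0.145 (without Fh1Δ/Δ replicate 2) without 1 array. Same-numbered arrays deviated together only weakly (r = 0.11 across genes), and the labels do not pair them. The replicate block could not change the members' differences in this balanced design. It gave 1009 higher and 749 lower genes, against 1044 and 668. Counts of higher and lower genes were 480 and 322 without Fh1fl/fl replicate 1, 288 and 113 without Fh1fl/fl replicate 2, 205 and 81 without Fh1Δ/Δ replicate 1, and 393 and 153 without Fh1Δ/Δ replicate 2. They were 1749 and 1526 without the dimmest 25% of probe sets, 1693 and 1245 without the dimmest 50%, 1854 and 1471 with trend and robust settings, and 197 and 51 at an adjusted p under 0.01. Median centring gave 807 and 1052, or 43.4% higher against 61.0%, and subtraction of chromosome medians 1113 and 362, or 75.5% higher. The cause of these moves was not tested.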
